A study of Bos taurus with 2 samples.

Results

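The regions described here are 1022 compact, densely marked H3K4me3 peaks of the bovine longissimus dorsi (LD), the loin muscle, that were called in both tender and tough Angus steers. They were selected on the peak lists themselves. A tender and a tough peak on chromosomes 1 to 29 had to overlap one to one, by 1 bp or more and with no other partner, both had to be 2000 bp or shorter, and both had to reach a SICER score of 8 per window of 200 bp. These pairs are 11.05% of the 9252 one-to-one pairs on the autosomes (95% Wilson interval 10.4 to 11.7) and 36.0% of the 2840 pairs in which both peaks were 2000 bp or shorter. The remaining 1818 pairs of that length are called the other compact pairs, and they are the nearest class for comparison.

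H3K4me3 is histone H3 carrying 3 methyl groups on lysine 4. The mark is deposited by the SET1 and MLL families of methyltransferases and sits on nucleosomes around the transcription start sites of active genes, where it can be bound by PHD finger proteins of the transcription machinery. At most active genes the mark is short and sharp, and in many cell types the widest domains lie over genes that define the cell.

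The steers were purebred Aberdeen Angus, harvested at about 12 months of age, and the 2 groups were formed by Warner-Bratzler shear force (WBSF), a measure of how hard cooked meat is to cut. The tender group held 4 steers with a WBSF of 6.77 ± 0.56 kg and the tough group 5 steers with 19.93 ± 0.39 kg, where the labels do not say which error is meant, and no treatment distinguished them. Equal aliquots of chromatin were pooled within a group, cut with Micrococcal Nuclease and precipitated with an antibody to H3K4me3, which gave 1 library per group. The spread between steers is therefore not in these data, and no comparison between the groups could be tested. Intervals of shares cover counting error only, and intervals of medians cover the spread over regions only. LD holds fat, connective tissue and blood cells besides muscle fibres, and the share of each in a peak, or more marked cells as opposed to more mark per cell, could not be told apart.

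The deposited lists held 12930 tender and 11535 tough peaks, of which 12607 and 11277 lay on the autosomes. The methods name bosTau4 as the genome, but the lists state no build and their last peak on chromosome X ended at 148809400 in the tender group. Positions are given as in those lists, counted from 1, and the genes under the peaks were not analysed here. The compact, dense peaks covered 1.40 Mb in the tender library, which was 5.03% of the length of all autosomal tender peaks, and they carried 11.2% of the summed score. In the tough library they covered 1.46 Mb, or 4.76%, and carried 11.5%.

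SICER divides the genome into windows, gives each window with reads a value that grows as its count becomes less likely under a Poisson background (the negative natural logarithm of that likelihood), and sums the values over the peak. The score per window thus measures how densely a peak is filled with reads. Since it chose the regions, its level is a description. In the tender library it ranged from 8.06 to 338.8 with a median of 14.0 and quartiles of 10.9 and 18.1. In the tough library it ranged from 8.004 to 162.0 with a median of 11.4 and quartiles of 9.64 and 14.6. The other compact pairs had medians of 7.30 in the tender library and 5.81 in the tough. Of those, 738 reached the minimum of 8 in the tender library alone and 222 in the tough library alone.

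Few regions lay far above the minimum. A score per window of 20 was reached by 188 peaks in the tender library, by 79 in the tough library and by 40 in both. Only 5 pairs reached 40 in both libraries and 3 reached 100 in both. The pair nearest above the minimum lay at chr8:54432601-54434200 in the tender library and chr8:54432601-54434600 in the tough library, with scores of 79.03 and 80.04, or 9.88 and 8.004 per window. The nearest pair below it, at chr3:16506401-16507200 in the tender library and chr3:16506201-16507600 in the tough library, had scores of 57.8 and 56.0, or 14.4 and 7.999 per window.

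**Figure D1:**
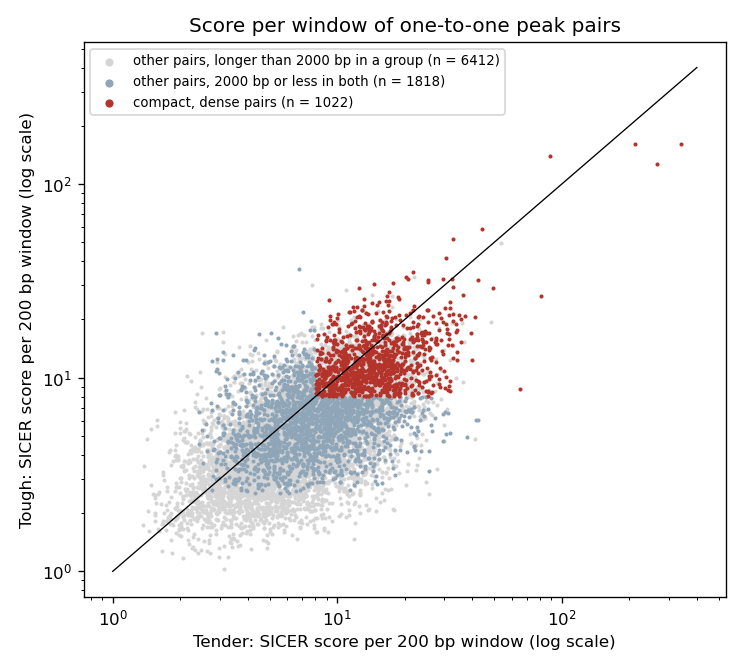
SICER score per 200 bp window of each one-to-one pair of peaks, tender library on the horizontal and tough library on the vertical axis, both on log scales. Each point is 1 pair and the line marks equal values. The 1022 compact, dense pairs lie in the corner above 8 in both libraries, where pairs longer than 2000 bp lie as well. A few compact, dense pairs stand far above the rest, up to 338.8 in the tender library and 162.0 in the tough.

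Length followed the same limits in both libraries. The median length was 1400 bp in each, with quartiles of 1000 and 1600 bp in the tender library and 1200 and 1800 bp in the tough library. In 27 pairs both peaks were 2000 bp long, and in 10 pairs both were 400 bp or shorter. The longest, taken in order of position, lay at chr1:100539001-100541000 in the tender library and chr1:100538801-100540800 in the tough library and held 44 and 35 reads. The shortest was the only pair a single window long in both libraries. It lay at chr17:74503601-74503800 and rested on 9 tender and 10 tough reads.

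The scores could be resolved into reads, because a score fixes the number of reads, the number of windows that hold them and how unevenly they are spread. The mean over the genome was 0.157 reads per window in the tender library and 0.182 in the tough, a ratio of 1.165, so the same reads score lower in the tough library. A read number was found for 1016 tender and 1017 tough peaks among the 1022 regions, each with 1 number only, and no peak had a solution when the mean was raised by 0.1%. In 8 pairs a peak was left uncounted, each longer than 4 windows with room for more than 80 reads by its score.

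A typical compact, dense peak rested on few reads. The median was 31 reads in the tender library (quartiles 24 and 39) and 30 in the tough library (24 and 36), against 18 and 17 reads in the other compact pairs. In 192 of the 1014 pairs counted in both libraries at least 1 peak held under 20 reads, and in 68 both did. Such pairs can show only large differences.

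Reads were concentrated in a few windows of the peak rather than spread evenly. A score does not show the order of its windows, so counts are given from the fullest down. The median count of the fullest window was 11.5 reads in the tender library and 10 in the tough one, where the mean of all fitting spreads was taken if a score allowed several. That window held 38.1% of the tender and 35.0% of the tough reads of its peak, and the 2 fullest windows held 62.5% and 58.6%. In the other compact pairs the fullest window held fewer reads, 7 and 5.5, but much the same share, 38.3% and 33.3%. The dense regions differed from them in the number of reads per window, 4.5 and 4.0 against 2.67 and 2.33, which the selection on score fixes.

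Few windows were empty. All windows of the peak held reads in 599 of the 1014 counted tender peaks (59.1%) and in 609 of the tough ones (60.1%), against 33.5% and 28.2% of the other compact pairs. A minimum of score per window favours peaks without empty windows, so the selection bears on this contrast. Longer peaks held more reads without a much fuller window. From 1000 to 2000 bp the median rose from 23 to 37 reads in the tender library and from 22 to 37 in the tough library. The fullest window moved from 10 to 12 and from 9.5 to 11 reads. A minimum of score per window asks for more reads in a longer peak, so the selection bears on this rise too. The fewest reads of any counted region rose from 14 to 27 in the tender library and from 15 to 27 in the tough.

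**Figure D2:**
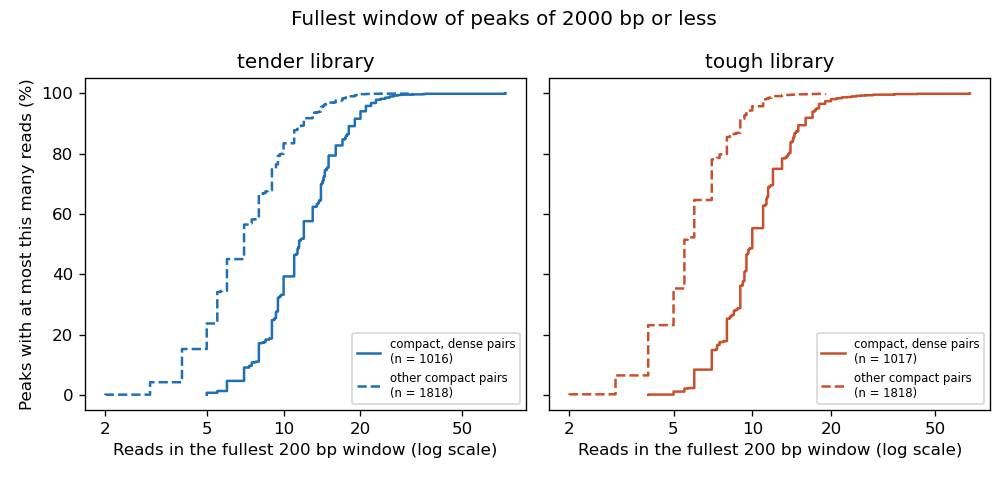
Cumulative share of peaks, in percent, by the number of reads in their fullest 200 bp window on a log scale, for the tender library on the left and the tough library on the right. Solid lines are the compact, dense pairs and broken lines the other compact pairs; the medians are 11.5 against 7 reads in the tender library and 10 against 5.5 in the tough.

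The 10 regions with the largest geometric mean of both scores per window were taken from the top of the ranking. The first 4 lay between 111.1 and 233.4, and the next 6 fell from 50.8 to 35.8. Together the 10 held 6.03% of the summed tender and 4.74% of the summed tough score of the 1022 regions. In 7 of them the peak had the same start and end in both libraries, and in 6 the score per window was higher in the tender library, or in 4 after division by the library medians described below.

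At chr25:17729801-17731200 both libraries called the same 7 windows. Its 338.8 per window in the tender library allows between 354 and 465 reads, and its 160.7 in the tough library between 191 and 256. The pair at chr16:34308801-34310200 in the tender library and chr16:34309401-34310200 in the tough library reached 212.2 and 162.0 per window. Its tender peak can hold between 237 and 314 reads. Its tough peak held exactly 137, spread as 68, 57, 10 and 2 over 4 windows, so nearly all of its signal lay in a pair of windows.

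The region at chr8:112084201-112084600 was only 400 bp long. Its tender score of 265.7 per window came from 107 reads, 74 in one window and 33 in the other, and its tough score of 126.5 from 59 reads, 43 and 16. Reads were thus unevenly spread in both libraries, and whether the fuller window was the same one is not known. At chr1:61603201-61604800 the order was the opposite, with 88.5 per window in the tender library and 139.4 in the tough. Its reads lie between 127 and 174 in the tender library and between 190 and 260 in the tough library. These ranges are apart as resolved, but they overlap once divided by depth, which was 1.165-fold higher in the tough library.

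Of the remaining 6, 4 could be counted in both libraries. The region at chr5:115177801-115178600 held 45 tender reads, as 27, 15, 2 and 1, and 59 tough reads, as 35, 17, 6 and 1. Its scores per window were 44.3 and 58.3. At chr20:10398401-10399200 the tender library had 43 reads, as 27, 14, 1 and 1, and the tough library 38, as 17, 12, 7 and 2, which gave 42.5 and 32.0 per window. Both libraries filled all 4 windows there, and the tough reads were spread more evenly over them than the tender reads.

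The region at chr9:88410401-88410800 held 25 tender reads, 23 of them in one window, and 17 tough reads, 15 of them in one window. In each library the other window held 2. The pair that started at chr13:62165401 held 57 tender and 68 tough reads with 29 and 35 in the fullest window. It ended at 62166800 in the tender library and at 62166600 in the tough library.

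The largest imbalance among the 10 was at chr26:38916801-38918200, with 80.6 per window in the tender library and 26.3 in the tough. Its tough peak held 54 reads, and its tender peak between 104 and 141. At chr28:1893401-1895400 in the tender library and chr28:1893401-1895200 in the tough library the scores per window were 32.7 and 52.0. For this pair the possible reads, from 67 to 97 in the tender library and from 92 to 131 in the tough library, overlap.

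The score per window of the 1022 regions was lower in the tough library on the scores as deposited. The median ratio of tough to tender was 0.844, with a range of 0.134 to 2.75 and an interval of 0.817 to 0.862. That interval covers the spread over regions, which are not replicates, and not the spread between steers. The median ratio was 0.745 in the other compact pairs and 0.744 over all one-to-one pairs. Once each library was divided by its own median over all pairs, the median ratio became 1.16. Those medians were 7.73 per window for tender peaks and 5.63 for tough peaks, while the minimum of 8 was set on the undivided scores. Relative to its median, a tough peak thus had to pass a higher minimum, which raises the divided ratio by selection. The value of 1.16 is therefore not read as a difference between the libraries. The minimum of 8 also leaves out pairs that fall below it in either library, so the selection bears on the undivided ratios too.

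By a fold of 1.5 in score per window, 271 regions (26.5%) were higher in the tender library, where the same fold was passed by 40.6% of all one-to-one pairs. In the other direction 67 regions (6.56%) were higher in the tough library, against 7.58% of all pairs. After dividing by the library medians the counts turned to 81 and 256. At a fold of 2 as deposited, 96 regions (9.39%) were higher in the tender library, against 20.4% of all one-to-one pairs. In the tough library 9 (0.881%) were higher, against 2.70% of all pairs. The rule used these same scores, so nothing is read from the shares. The counts after division have no share of all pairs beside them, and nothing is read from them either.

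Reads were compared as resolved and per depth. Over the 1014 pairs counted in both libraries there were 32760 tender and 30984 tough reads, so that 51.4% were tender, against 52.1% in the other compact pairs and a tender share of 46.2% in the depth of the libraries. The tender peak held more reads in 559 pairs, the tough peak in 407, and both the same in 48. Among the 1818 other compact pairs these numbers were 953, 731 and 134. The median ratio of tough to tender reads was 0.952, and 0.817 after the reads were divided by the mean per window of their library. Reads 1.5-fold higher were found in 105 tender and 70 tough peaks as resolved, and in 237 and 18 per depth. No share of the other compact pairs stands beside these counts, so they are not read as a trait of the dense regions. Of the 271 regions with a score per window 1.5-fold higher in the tender library, 269 could be counted in both, and 73 of these also had 1.5 times as many reads (145 per depth). In 187 of the 271 the tough peak was the longer one, as it was in 460 of all 1022 regions (45.0%). Each score was divided by the length of its own peak, so length and score per window are tied by definition. Of the 67 regions higher in the tough library the tender peak was the longer in 44, as it was in 317 of all 1022 regions (31.0%). Among the 64 of these 67 counted in both libraries, 21 had 1.5 times as many tough reads (8 per depth).

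Among the regions with the most unequal scores, lengths and reads differed in varying degree. The largest ratio in favour of the tender library, 7.44, was at chr20:31053601-31053800, a tender peak of 1 window with 17 reads. Its tough partner, chr20:31053201-31053800, covered 3 windows with 9 reads, 8 of them in one window. At chr10:81323201-81323800 the tender library had 28 reads as 10, 9 and 9 in 3 windows. The tough peak, chr10:81322001-81323800, also had 28 reads but over 9 windows, 7 of which held 8, 7, 5, 5, 1, 1 and 1, so that equal reads gave a 3.60-fold higher score per window in the tender library.

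For 3 further regions the tender peak was both shorter and richer in reads. The peak at chr19:56715601-56716600 held 44 tender reads against 23 in the longer tough peak, a fold of 3.71. At chr15:44267001-44268000 there were 44 tender and 32 tough reads and a fold of 3.46, and at chr3:101323401-101324400 there were 40 and 26 reads and a fold of 3.42.

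In favour of the tough library the largest ratio was 2.75, at chr12:69633201-69635000 in the tender library and chr12:69633401-69634400 in the tough library. The tender peak held 25 reads as 16, 4, 2, 2 and 1 and the tough peak 38 reads as 18, 9, 8, 2 and 1. At chr25:27251201-27253000 in the tender library and chr25:27252401-27253200 in the tough library both held 35 reads, and the ratio of 2.33 followed the lengths of 1800 and 800 bp. At chr9:24113001-24115000 the tender peak had more reads, 29 against 14, yet the tough peak of 400 bp scored 2.26-fold higher per window.

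A higher score per window with more reads was seen in the other two of the 5 largest ratios. The pair that started at chr21:37274601 in both libraries held 13 tender and 20 tough reads, a ratio of 2.13. The tender peak chr16:2059001-2060000 held 17 reads and its tough partner 41, again with a ratio of 2.13.

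The scores per window of both libraries followed each other only loosely over the 1022 regions, at a rank correlation (Spearman's rho) of 0.29 and a linear one of log2 values (Pearson's r) of 0.47. Without the regions at 40 or more in either library, rho was 0.27 and r 0.31 over 1010 regions. Over all one-to-one pairs rho was 0.59, but the minimum of 8 removes the lower part of the range. Reads per peak had a rho of 0.65 over 1014 regions and reads in the fullest window a rho of 0.38. The points share 2 libraries and the length of the region, so these values are descriptions.

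The edges of the peaks entered the rule through their length, both in the limit and in the division of the score, so a pair with 1 extended edge was more readily lost from the dense regions. The shares of common edges are therefore descriptions. Of the 1022 regions 149 had the same start and the same end in both libraries, or 14.6%, against 8.86% of the other compact pairs. Counting these, starts were the same in 388 regions (38.0%) and ends in 369 (36.1%), against 29.1% and 29.2%. Both edges lay within 1 window of each other in 55.4%, against 38.2%, and within 2 windows in 81.5%, against 62.7%.

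Where edges differed, the tough peak more often reached further out. It started earlier in 355 regions and later in 279, and it ended later in 391 and earlier in 262. The tough peak was longer in 460 regions (45.0%) and the tender peak in 317 (31.0%), while the other compact pairs gave 53.7% and 28.7%. Shifts of the whole peak, with both edges moved the same way, were seen in 23.0% of the regions, against 31.0% of the other compact pairs. The overlap covered a median of 80% of the longer peak.

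**Figure D3:**
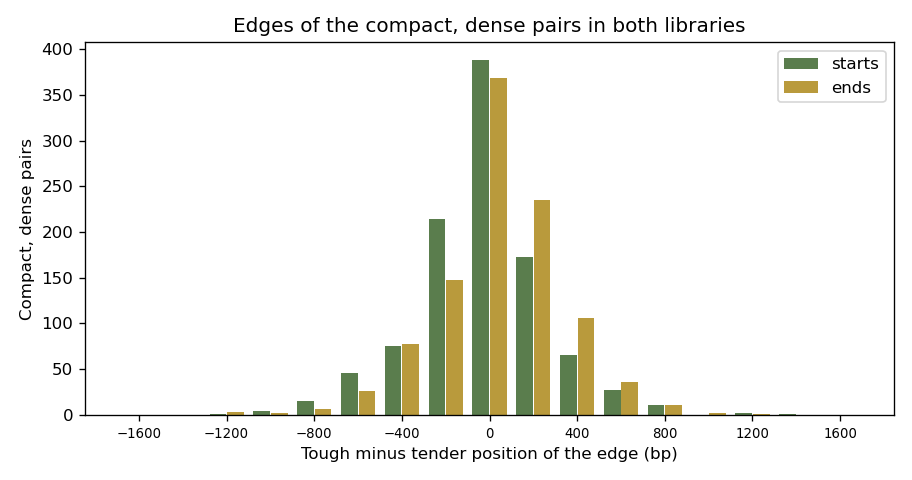
Number of compact, dense pairs by the position of the tough edge minus that of the tender edge, in bp, for starts and for ends. The highest bars stand at 0, with 388 starts and 369 ends; starts lean to the left (214 at -200 against 173 at 200 bp) and ends to the right, with 235 at 200 bp.

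Regions with the same edges allow reads to be compared over the same windows. In these 149 regions the median ratio of tough to tender score per window was 0.843, much as in the other 873 regions (0.844). A fold of 1.5 in favour of the tender library was passed by 32 of them (21.5%), and in favour of the tough by 10 (6.71%). These shares were 27.4% and 6.53% in the other 873 regions, and 40.6% and 7.58% over all one-to-one pairs. After division by the library medians the ratio was 1.16 and the counts were 6 and 35. The common minimum, set before division, bears on these divided values as well. In the 145 of them counted in both libraries the median reads were 31 and 30. Of these, 12 had 1.5 times as many tender and 6 as many tough reads, or 36 and 1 per depth. Among the 869 counted regions with other edges, 93 and 64 did so as resolved. The per-depth counts have no such comparison beside them, and nothing is read from them. Reads in the regions with the same edges had a rho of 0.80 between the libraries, against 0.62 in the regions with other edges. Reads rise with length and the same edges mean equal lengths, which bears on this contrast. All regions of equal length, these included, had a rho of 0.73.

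Compact, dense regions were spread over the genome with few close neighbours. The nearest other peak of the same library lay at a median distance of 30600 bp in the tender (27400 to 34800) and 34500 bp in the tough library (31400 to 39600). For all other one-to-one pairs it lay at 26400 and 28000 bp, but the other compact pairs were as isolated, at 31300 and 34400 bp. A neighbour within 5 kb was less common beside the dense regions, 11.5% in the tender (9.73 to 13.7) and 10.3% in the tough library (8.56 to 12.3), against 15.1% (13.6 to 16.8) and 15.2% (13.7 to 17.0) of the other compact pairs. The intervals overlap slightly in the tender library and not in the tough library. A gap of 100 kb or more stood beside 19.96% and 22.6%, against 18.9% and 21.0%.

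Along the chromosomes the dense regions were less frequent near the far end, taken as the end of the last peak in either library. The last 5 Mb held 4.99% of them (3.82 to 6.50), against 7.92% of the other compact pairs (6.77 to 9.25) and 7.70% of all other pairs. The first 5 Mb held 5.19%, against 5.67% of the other compact pairs, a difference well within the intervals.

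Neighbouring dense regions lay a median of 471500 bp apart, centre to centre, and 711 of the 2523 bins of 1 Mb held at least 1. Within 100 kb of another dense region lay 212, and within 10 kb lay 18, which form 9 couples. The closest couple was on chromosome 12, at chr12:87613001-87614400, with 33 tender and 29 tough reads, and at chr12:87615601-87616200 in the tender library, with 15 and 21 reads, 600 bp from the first in the tough library. Another was on chromosome 2, where the tender peaks chr2:26735201-26736400 and chr2:26740601-26741200 held 53 and 14 reads and their tough partners 60 and 34. These couples were named after their values had been seen.

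The fullest bin was on chromosome 18 from 47000001 to 48000000, with 10 dense regions among its 22 one-to-one pairs. They lay between 47179801 and 47771200, each at least 9200 bp from the nearest peak of either library, and their score per window ran from 9.89 to 22.4 in the tender library and from 9.75 to 24.8 in the tough library. The ratio of tough to tender was above 1 in 3 of the 10, up to 1.504, and below 1 in the other 7, down to 0.435. After division by the library medians it was above 1 in 7 and below 1 in 3, on which the common minimum bears. The next bins held 6 each. They were on chromosome 18 from 52000001 and from 65000001 and on chromosome 23 from 30000001, the last with 6 dense regions among 11 pairs.

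The share of pairs that were compact and dense differed between chromosomes. It was highest on chromosome 9, with 35 of 224 pairs (15.6%, 11.5 to 21.0), followed by chromosome 8 with 15.5%, chromosome 10 with 14.9% and chromosome 1 with 14.7%. The order among these 4 lies within their intervals. Chromosomes 19, with 31 of 594 (5.22%, 3.70 to 7.31), and 17, with 16 of 298 (5.37%, 3.33 to 8.54), had the lowest shares. In these 6 cases the interval left out the 11.05% of all autosomes, among 29 chromosomes looked at.

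Relative to compact pairs alone, no interval lay above the 36.0% of all autosomes and 3 lay below it, those of chromosomes 14 (22.7%), 17 (20.5%) and 19 (25.4%). On chromosome 9, 42.9% of the pairs were 2000 bp or shorter in both libraries, against 30.7% over all autosomes, and its fold over the autosomes fell from 1.41 to 1.01 on that base. On chromosome 19 only 20.5% were that short, and the fold rose from 0.472 to 0.706. Chromosome 17 moved little, from 0.486 to 0.570, and chromosome 8 stayed above 1, at 1.21 after 1.41. By number the most dense regions were on chromosomes 18 (71), 3 (66) and 10 (66), and per Mb on chromosomes 18 (1.08) and 25 (1.07). The median ratio of tough to tender score per window within a chromosome ran from 0.714 on chromosome 15 to 0.938 on chromosome 21. It ran from 0.981 to 1.29 after division by the library medians, on which the common minimum bears.

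**Figure D4:**
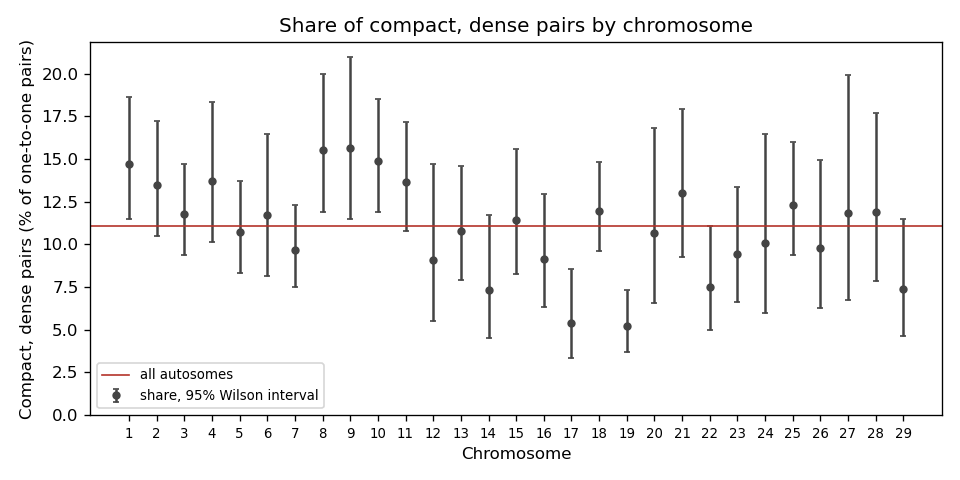
Compact, dense pairs as a percent of the one-to-one pairs on each autosome, with 95% Wilson intervals for counting error and a line at the 11.05% of all autosomes. Chromosomes 1, 8, 9 and 10 lie above the line and 17 and 19 below it with their whole interval.

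Each library came with a further list, of 12452 tender and 11395 tough peaks on other coordinates, which ended at 87903400 on chromosome X in the tender group. The same selection on that list gave 1013 regions, 11.4% of 8874 pairs, with medians of 14.1 and 11.4 per window, a ratio of 0.833 and the same edges in 15.8%. The number of regions on a chromosome differed by at most 5 on 22 of the 29 chromosomes and by 11 at most. Chromosomes 17 (3.85%) and 19 (5.89%) were again the lowest. At the upper end the order and the chromosomes changed. Chromosomes 1 (15.4%) and 10 (14.9%) came first, followed by 27 (14.4%), 9 (14.2%), 11 (14.2%) and 21 (14.1%). Chromosome 8, at 12.7%, lay below these and below chromosomes 15 (13.9%) and 6 (13.4%).

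Positions could not be compared between the lists, so regions were matched by chromosome and scores. Of the 10 highest regions, 4 had a pair on the same chromosome of the further list with both scores within 25% (larger over smaller), and 3 had none on any autosome. Like scores do not show the same region, since each of the 4 had between 6 and 11 such pairs. For 3 of them the closest was a longer peak, with tender lengths of 2200, 1200 and 2800 bp against 800, 400 and 800 bp. The highest geometric mean on chromosomes 5 and 9 was 22.4 and 24.7 in the further list, against 50.8 and 37.8 here. The peak on chromosome 25 with scores of 2371.6 and 1125.1 had no match, its nearest being 816.9 and 1347.9. On chromosome 16 the highest geometric mean per window in the further list was 19.2, against 185.4 here. The further list had its own highest region on chromosome 13, with scores of 2782.9 and 3001.0, whose nearest in the list used here had 281.1 and 309.8. From about the 50th rank on the values came close, with 22.4 and 23.9 at rank 50 and 12.9 and 13.0 at rank 500. Why the highest regions differ between the lists was not tested.

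**Figure D5:**
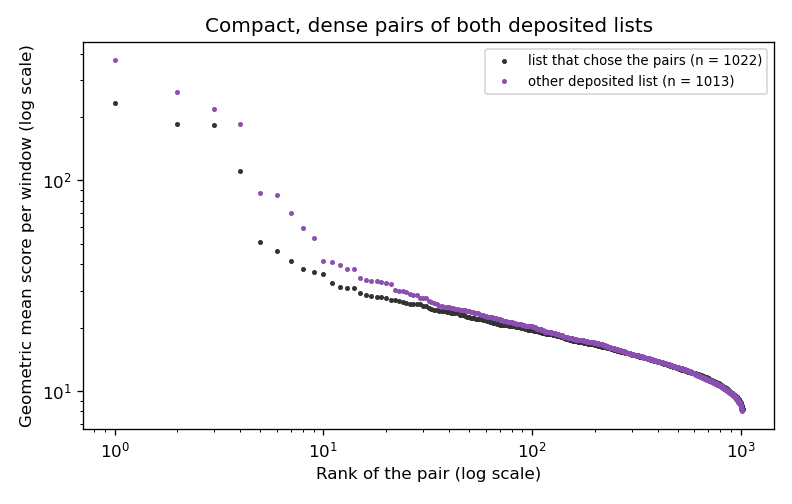
Geometric mean of the tender and tough score per window against the rank of the region, both on log scales, for the list used to select the 1022 regions and for the further deposited list with 1013 regions. The first ranks lie apart, at 233.4 and 373.1, and the points run together from rank 50 on.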

How the data were processed

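H3K4me3 ChIP-Seq was analysed in 1 pooled library per group. By the methods, the authors aligned reads with Maq to bosTau4, allowed 1 mismatch, removed redundant and multiply aligned reads, and called peaks with SICER (version 1.1 in the submitters' processing notes) with windows of 200 bp, gaps of 400 bp, fragments of about 190 bp and an E-value of 100. The deposited unit is the SICER score of each peak, with no control library named. Groups came from the sample labels.

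Pairs were formed by overlap of at least 1 bp, and the score was divided by the number of windows. Each score was resolved into window counts by matching it to all sums of Poisson terms of up to 80 reads in up to 10 windows, and by direct search beyond that in peaks of up to 4 windows. From 20 reads on, the log factorial followed Ramanujan's formula, since the scores matched only in that form. Pairing and the read numbers of peaks of up to 80 reads were tested on simulated peaks scored by the same formula. The simulated windows held few reads, and the direct search, the ranges of possible reads and the selection rule were not tested. Positions, distances and edges were counted with 95% Wilson intervals, and medians with order-statistic intervals.

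Regions are named by rank: the 10 highest by geometric mean, the 5 largest ratios each way, those nearest the minimum of 8, and the longest and shortest. The regions, limits and lists were chosen with earlier results of these data known. Alternatives were other minima, length limits and overlaps, chromosome X, scaling by library medians, a fold of 2, and, added after seeing the data, the further list, the regions below 40 per window, the scaling for sets of regions and reads per depth. Genes, sequences and GC content were not analysed here. The software was scipy 1.17.1, pandas 2.3.3 and numpy 2.4.6 under Python 3.11.15, with matplotlib 3.10.9 for plots.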

Additional observations from a re-analysis of the deposited data

Results flagged for a closer look

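Chromosome X, which the selection left out, held 222 one-to-one pairs, of which 113 were 2000 bp or shorter in both libraries. The limits on length and score per window were met by 10 of them, or 4.50% of the pairs (95% Wilson interval 2.46 to 8.09). This signal lies outside the comparisons above, and its share lay below the 11.05% of the autosomes.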

How the results depend on the processing

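A minimum of 6 per window gave 1658 regions, with 506 past 1.5-fold in favour of tender and 111 in favour of tough, and a minimum of 10 gave 611, 129 and 37. A length limit of 1600 bp gave 606 regions, 162 of them past 1.5-fold in favour of tender and 48 in favour of tough. The same edges were found in 19.3% at that limit, while 2400 bp gave 1338 regions and the same edges in 12.0%. Over all one-to-one pairs the fold of 1.5 was passed by 40.6% in favour of tender and 7.58% in favour of tough. Nothing is read from these counts. Division by the library medians reversed the median ratio to 1.16, with 81 and 256 regions past the fold. The common minimum of 8 bears on that reversal, so it is not read as a difference between the libraries. A fold of 2 left 96 and 9 regions (9.39% and 0.881%), against 20.4% and 2.70% of all one-to-one pairs. The cause of these shifts was not tested. Of the 83 values recomputed, 49 stayed within 1.5-fold, for counts, or within the interval of the reported value, including all from the further list, with chromosome X, with a reciprocal overlap of 50% and without the regions at 40 or more per window. No paired analysis was possible because each group has 1 library, and none could be left out. The comparisons with gene starts and GC content were not run. Precision is limited by a median of about 30 reads in a peak.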
